A study of Mus musculus with 2 samples.

Results

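The intervals around 8 mouse Pax genes, Pax1, Pax2, Pax3, Pax5, Pax6, Pax7, Pax8 and Pax9, held 76 of the 45579 enrichment peaks of E14 embryonic stem cells transfected with an shRNA against Dnmt3L (shDnmt3L) and 70 of the 55292 peaks of E14 cells transfected with an shRNA against GFP (shGFP), the control. The mouse gene table lists 9 Pax genes, and the other one, Pax4, was not analysed here. Each interval was a gene with flanks in the mm9 build, between 110 and 280 kb long and 1.37 Mb in all, and every peak touching it was taken from both lists. E14 is a line of pluripotent mouse cells, and Dnmt3L is a catalytically inactive partner of the enzymes that place new DNA methylation. With 1 library a group there is no spread between replicates and no test, and each difference is one between these libraries. The 8 genes were chosen by the covered length, the widest peak and the score rank in these lists, so those values are given as a description. The cell type is taken from the labels, and the level of Dnmt3L was not analysed here.

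The sources differ on the modification that was captured. The titles and the design text speak of MeDIP and 5-methylcytosine, whereas the labels' protocols describe capture with the Hydroxymethyl Collector kit, which binds glucosylated 5-hydroxymethylcytosine. Peaks are thus named by enrichment alone here, and the length under them is called covered length. Over both whole lists, shDnmt3L had fewer but wider peaks (median 2376 bp in shDnmt3L, 1998 bp in shGFP) and covered 124 Mb, against 118 Mb in shGFP, a ratio of 1.05. How deeply each library was sequenced is unknown, which can itself change peak numbers and widths.

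Pax proteins are transcription factors that bind DNA through a paired domain and direct the formation of organs and tissues in the embryo. They fall into 4 subfamilies by sequence: Pax1 with Pax9, Pax2 with Pax5 and Pax8, Pax3 with Pax7, and Pax6 with Pax4. Genes of this kind are kept silent by Polycomb complexes in embryonic stem cells, and their promoters lie in or near CpG islands that are largely free of DNA methylation.

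Every Pax interval had more covered length in shDnmt3L than in shGFP. The 8 intervals together had 327 kb under shDnmt3L peaks and 153 kb under shGFP peaks, which was 23.9% and 11.1% of their length and a ratio of 2.14. With intervals widened by 50 kb the ratio was 1.88. Of 150 kb tiles along the genome with at least 5 kb under peaks of either list, 52.6% had more covered length in shDnmt3L. At least 2-fold more was found in 5 of the 8 intervals, those of Pax1, Pax2, Pax3, Pax6 and Pax9, and in 6.55% of the 7376 tiles. With intervals widened by 50 kb Pax2 was just under 2-fold, and with a minimum score of 100 or with lists of equal length Pax7 was above it. The share of tiles past 2-fold was also higher then, 14.9% with a minimum score of 100 and 11.3% with lists of equal length. At least 1.5-fold more was found in all 8 intervals and in 14.1% of tiles, and at least 3-fold more in 3 intervals and in 3.02% of tiles.

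Of the length covered in shDnmt3L only, 157 of 194 kb lay in 20 peaks that overlapped no shGFP peak and had a median width of 5944 bp. This share of length was not computed over the whole lists, where 12.6% of shDnmt3L peaks overlapped no shGFP peak. Peak numbers were higher in shDnmt3L at 5 genes, equal at 2 and lower at Pax7. The whole lists held 45579 peaks in shDnmt3L and 55292 in shGFP. Peak numbers were not counted per tile, so there is no share to set beside these 5 genes. Peaks of 10 kb or more numbered 6 in the shDnmt3L list, at Pax2, Pax3, Pax6, Pax7 and Pax9, and 0 in the shGFP list. Over the whole lists, 0.535% of shDnmt3L peaks and 0.0524% of shGFP peaks were that wide. At 5 kb or more there were 16 shDnmt3L peaks and 0 shGFP peaks in the Pax intervals, where the whole lists had 5.18% and 1.34%. Of these 6 peaks, 5 overlapped no shGFP peak, as did 42.6% of the 244 shDnmt3L peaks of that width in the whole list. Without the peaks of 10 kb or more the ratio of covered length was 1.49, with 228 kb in shDnmt3L and 153 kb in shGFP.

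**Figure D1:**
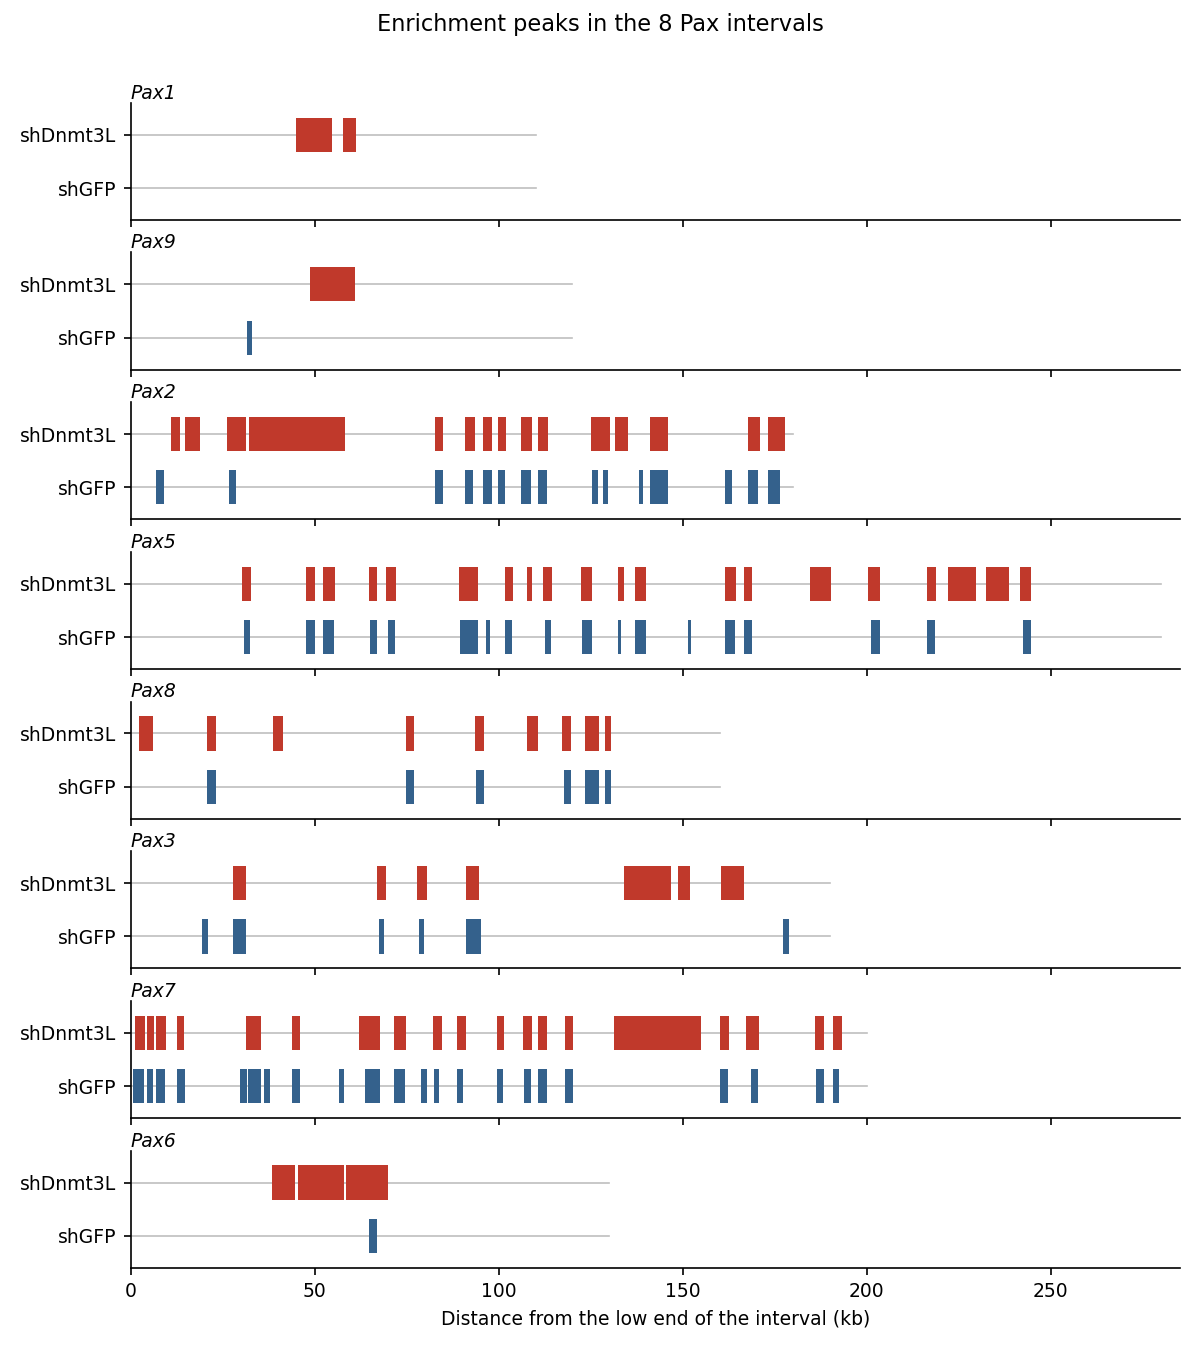
Peaks of shDnmt3L (red, upper track) and shGFP (blue, lower track) in the 8 Pax intervals, ordered by subfamily; the x axis is the distance in kb from the low end of each interval, and the grey lines show the interval lengths of 110 to 280 kb. Wide red blocks, the widest being 26.2 kb at Pax2 and 23.7 kb at Pax7, stand mostly over empty stretches of the blue track, and much of the rest matches between the tracks. A block of 11.459 kb at Pax6 lies over a shGFP peak.

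Pax promoters vary in the number of CpGs, the dinucleotides that carry most cytosine methylation in mammals. RefSeq promoter windows of GRCm38.p6, from 250 bases before to 50 after the start of a transcript, were at hand for 7 of the 8 genes, 10 windows in all, and not for Pax3. They held between 7 and 30 CpGs, and the median of 32817 promoter windows was 7. The windows below belong to 3 genes with a shDnmt3L peak of 10 kb or more and to Pax8, whose widest was 3765 bp. They show the CpGs on which a modification could sit. Capitals mark CpGs, and all are written 5′ to 3′ on the gene's strand. These coordinates belong to another build than the peaks, so it is not known whether a peak covers them.
Pax2, chr19:44756656-44756955, plus strand, GRCm38.p6: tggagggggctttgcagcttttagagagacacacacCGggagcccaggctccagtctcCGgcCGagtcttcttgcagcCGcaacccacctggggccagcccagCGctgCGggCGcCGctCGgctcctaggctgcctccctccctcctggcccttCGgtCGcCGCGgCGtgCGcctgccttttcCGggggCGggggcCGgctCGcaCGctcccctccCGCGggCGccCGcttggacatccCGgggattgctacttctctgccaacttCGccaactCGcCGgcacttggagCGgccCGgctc
Pax6, chr2:105668646-105668945, plus strand, GRCm38.p6: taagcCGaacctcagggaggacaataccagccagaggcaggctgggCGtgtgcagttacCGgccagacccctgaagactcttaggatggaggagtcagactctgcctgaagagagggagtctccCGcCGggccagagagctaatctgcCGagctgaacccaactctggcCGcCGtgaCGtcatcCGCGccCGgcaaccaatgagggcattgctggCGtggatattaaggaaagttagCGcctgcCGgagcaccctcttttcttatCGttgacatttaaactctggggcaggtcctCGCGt
Pax7, chr4:139832919-139833218, minus strand, GRCm38.p6: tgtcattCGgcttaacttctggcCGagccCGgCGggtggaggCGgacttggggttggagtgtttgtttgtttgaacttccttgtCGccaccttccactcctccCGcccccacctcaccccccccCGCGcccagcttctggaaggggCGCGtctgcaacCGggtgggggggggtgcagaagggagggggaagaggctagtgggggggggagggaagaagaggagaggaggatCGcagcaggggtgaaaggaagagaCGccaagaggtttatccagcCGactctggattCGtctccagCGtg
Pax8, chr2:24475550-24475849, minus strand, GRCm38.p6: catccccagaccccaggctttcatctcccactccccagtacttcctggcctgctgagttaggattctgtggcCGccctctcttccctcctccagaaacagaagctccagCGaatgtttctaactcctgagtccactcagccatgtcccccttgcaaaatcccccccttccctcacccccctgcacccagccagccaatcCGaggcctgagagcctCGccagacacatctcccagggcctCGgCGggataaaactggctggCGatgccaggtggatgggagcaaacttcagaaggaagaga

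The Pax2 window held 30 CpGs, a number reached by 11.7% of all promoter windows. The Pax6 window held 18 (29.7% of windows reach it) and the Pax7 window 17 (31.4%). The Pax8 window held 7, which 52.1% of windows reach, and its observed over expected CpG ratio was 0.288, against 0.789 for Pax2, 0.698 for Pax6 and 0.581 for Pax7. The other windows were those of Pax5 with 23 CpGs, Pax1 with 13 and Pax9 with 11, a second Pax6 window with 16, and further Pax2 windows with 23 and 7. Pax9, which had a shDnmt3L peak of 10 kb or more, held fewer CpGs than Pax5 and Pax1, which had no such peak. One of the Pax2 windows thus had as few CpGs as that of Pax8, and the Pax2 and Pax6 windows shown are those with most CpGs. The observed over expected ratio was 0.882 at Pax5 and 0.639 at Pax1, both without a peak of 10 kb or more, and 0.679 at Pax9. It was 0.998 in the second Pax6 window, and 0.812 and 0.410 in the further Pax2 windows.

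Pax1 and Pax9, which act in the sclerotome that forms the vertebral column and in pharyngeal pouch tissue, had almost no peaks in shGFP. The Pax1 interval (147.14 to 147.25 Mb on chromosome 2) had 2 shDnmt3L peaks covering 13.4 kb and 0 shGFP peaks. The wider one, chr2:147184998-147194678, spanned 9681 bp, scored 773 (rank 595 of its list) and was followed after 2948 bp by a peak of 3676 bp. The nearest shGFP peak was 63012 bp from the wider peak. The Pax9 interval (57.74 to 57.86 Mb on chromosome 12) had 1 peak in each library, and they did not overlap. The shDnmt3L peak, chr12:57788601-57801024, spanned 12.4 kb and scored 691, rank 778. The shGFP peak, chr12:57771712-57773030, spanned 1319 bp, scored 61.7, rank 44641, and lay 15570 bp away. For Pax9 the ratio of covered length was 9.42, and for both genes together it was 25.8 kb in shDnmt3L and 1.32 kb in shGFP. These ratios depended on the interval: widened by 50 kb at both ends, Pax9 had 18.9 kb in shDnmt3L and 4.24 kb in shGFP, a ratio of 4.47, and Pax1 had 18.1 kb and 5.14 kb, a ratio of 3.52. In the gene table Pax1 lies between Nkx2-2 and Foxa2, and Pax9 next to Nkx2-9, all genes of developmental transcription factors, and no peak was assigned to a neighbour.

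Pax6, the regulator of eye, forebrain and pancreatic islet development, had the largest ratio among the 7 intervals with a shGFP peak. Its interval (105.46 to 105.59 Mb on chromosome 2) had 3 shDnmt3L peaks covering 30.2 kb and 1 shGFP peak of 2213 bp, a ratio of 13.6. The 3 shDnmt3L peaks were 6268, 12431 and 11459 bp wide and stood in a row with gaps of 852 and 503 bp, so 95.7% of a 31.5 kb stretch, chr2:105498418-105529930, was covered. The middle peak, chr2:105505538-105517968, had a score of 1209 and rank 197, and overlapped no shGFP peak. The shGFP peak, chr2:105524809-105527021, had a score of 64.7 and rank 42565, and lay wholly under the third shDnmt3L peak, which was 5.18 times as wide. Outside this stretch the interval had no peak in either library.

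Pax2, Pax5 and Pax8 had widest shDnmt3L peaks of very different size, 26.2, 7.49 and 3.77 kb. Pax2 is needed for the kidney, the optic stalk and the boundary of midbrain and hindbrain, Pax5 for commitment to the B-cell lineage, and Pax8 for the thyroid. The subfamily had 163 kb under 44 shDnmt3L peaks and 88.3 kb under 39 shGFP peaks.

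The Pax2 interval (44.78 to 44.96 Mb on chromosome 19) had 15 peaks in each library, yet 74.7 kb were covered in shDnmt3L and 35.0 kb in shGFP, a ratio of 2.14. The widest shDnmt3L peak, chr19:44812076-44838311, was 26.2 kb wide with a score of 2008, rank 44, and overlapped no shGFP peak, the nearest being 3542 bp away. The second widest peak of this interval was 5268 bp wide. A peak of 5225 bp, chr19:44806200-44811424, lay 651 bp before the widest one and was 2.81 times as wide as the 1859 bp shGFP peak within it. The widest shGFP peak, chr19:44921106-44925948, was 4843 bp wide, and its shDnmt3L partner lay over all of it. The strongest shGFP peak, chr19:44947840-44950434, had a score of 284.6 and rank 5600 and also lay wholly under a shDnmt3L peak. Of the 15 shDnmt3L peaks, 11 overlapped a shGFP peak and 4 did not. Over the whole shDnmt3L list, 12.6% of peaks overlapped none.

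The Pax5 interval (44.49 to 44.77 Mb on chromosome 4) held many peaks in both libraries, most of them at the same places. It had 20 peaks and 64.5 kb in shDnmt3L and 18 peaks and 39.6 kb in shGFP, a ratio of 1.63, and 94.5% of the shGFP length was also under shDnmt3L peaks. In all 16 pairs with a single partner in each list the shDnmt3L peak was the wider one, by a median of 249 bp. Over the whole lists this held for 81.7% of such pairs, with a median difference of 145 bp. No Pax5 peak reached 10 kb. The widest shDnmt3L peak, chr4:44712168-44719652, was 7485 bp wide with rank 3554, and the strongest, chr4:44722304-44728613, spanned 6310 bp and scored 592, rank 1116. These neighbours lay 2651 bp apart and neither overlapped a shGFP peak. The widest and strongest shGFP peak, chr4:44579418-44584357, spanned 4940 bp and scored 491, rank 1833, and a shDnmt3L peak of 5110 bp lay over all of it.

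Pax8 had the narrowest widest shDnmt3L peak of the 8 genes, and like Pax1 and Pax5 it had none of 10 kb or more. Its interval (24.22 to 24.38 Mb on chromosome 2) had 9 peaks and 23.9 kb in shDnmt3L and 6 peaks and 13.8 kb in shGFP, a ratio of 1.74. All 6 shGFP peaks had a shDnmt3L partner, and 99.8% of their length was shared. In the whole shGFP list 25.5% of peaks had no partner. The widest peaks of the libraries were partners of nearly equal width, 3765 bp in shDnmt3L (chr2:24343399-24347163) and 3701 bp in shGFP (chr2:24343431-24347131). The strongest peaks were partners too, with a score of 231 and rank 7177 in shDnmt3L (chr2:24337232-24339543) and 300.3 and rank 5049 in shGFP (chr2:24337701-24339577). Of the extra length, 9.30 kb came from 3 shDnmt3L peaks of 3751, 2677 and 2873 bp that overlapped no shGFP peak. The excess of 10.2 kb shrank to 5.70 kb when the interval was widened by 50 kb at both ends, and to 6.29 kb when it was narrowed by 25 kb.

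Pax3 and Pax7, which act in the neural crest and in skeletal muscle progenitors, each had a wide shDnmt3L peak over a stretch without shGFP peaks. The Pax3 interval (78.05 to 78.24 Mb on chromosome 1) had 7 peaks and 35.2 kb in shDnmt3L and 6 peaks and 13.6 kb in shGFP, a ratio of 2.58. Its widest shDnmt3L peak, chr1:78183915-78196824, was 12.9 kb wide with a score of 698 and rank 762, and the nearest shGFP peak was 30480 bp away. With a minimum score of 100 the ratio was 5.63 at Pax3 and 3.44 at Pax2. Further shDnmt3L peaks of 3418 and 6379 bp followed it, also without shGFP overlap. The widest shGFP peak, chr1:78141234-78145225, was 3992 bp wide with rank 32425, and the strongest, chr1:78077715-78081386, had a score of 208 and rank 9656. Both had shDnmt3L partners, and the first belonged to 1 of the 4 Pax pairs that were narrower in shDnmt3L.

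The Pax7 interval (139.24 to 139.44 Mb on chromosome 4) had fewer peaks in shDnmt3L, 19 against 23, but 72.6 kb of covered length against 47.1 kb in shGFP, a ratio of 1.54. A single shDnmt3L peak, chr4:139371341-139395061, was 23.7 kb wide with a score of 1765 and rank 67, and it overlapped no shGFP peak. Without this peak the interval had 48.9 kb in shDnmt3L and 47.1 kb in shGFP. The other 18 shDnmt3L peaks all had a shGFP partner, where 12.6% of the whole shDnmt3L list had none. The widest shGFP peak, chr4:139303735-139307784, was 4050 bp wide, and the strongest, chr4:139240733-139243672, had a score of 406 and rank 2793. These also had shDnmt3L partners, of 5802 and 2650 bp.

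**Figure D2:**
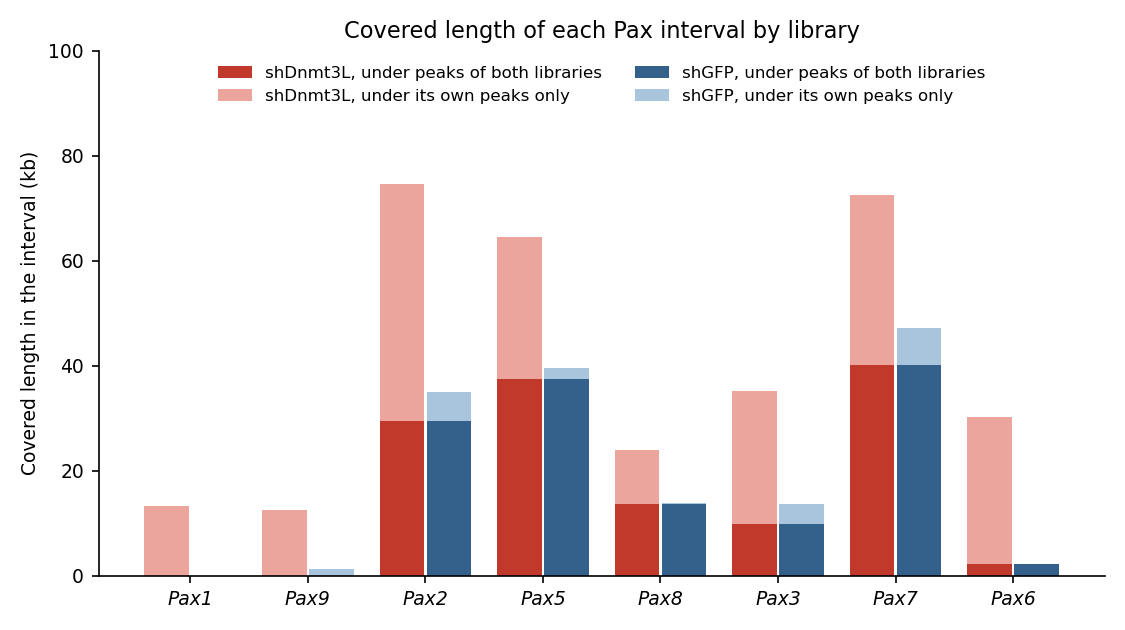
Covered length in kb of each Pax interval in shDnmt3L (left bar, red) and shGFP (right bar, blue), 1 library each; dark parts lie under peaks of both libraries and pale parts under peaks of that library only. The pale part is the whole shDnmt3L bar at Pax1 and Pax9 and 45.1 of 74.7 kb at Pax2, against 5.41 of 35.0 kb in shGFP at Pax2.

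Base by base, 133 kb of the 8 intervals lay under peaks of both libraries, 194 kb under shDnmt3L peaks only and 19.7 kb under shGFP peaks only. Of the shGFP length, 87.1% was thus also under shDnmt3L peaks, whereas 40.6% of the shDnmt3L length was under shGFP peaks. Both shares have the same shared length as numerator, so their contrast restates the ratio of covered length. They were not computed over the whole lists. The widest shDnmt3L peak of each interval accounted for 54.1% of the length found in shDnmt3L only, with 100% at Pax9, 72.9% at Pax7, 27.6% at Pax5 and 0.627% at Pax8.

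Within the Pax intervals, peaks found in 1 library differed in width and score between the lists. Of the 76 shDnmt3L peaks, 20 overlapped no shGFP peak (26.3%, Wilson 95% interval 17.7 to 37.2% for counting error only), and 12.6% of the whole shDnmt3L list did so. These 20 had a median width of 5944 bp and a median score of 303, against 2612 bp and 141 for the 56 shared ones. Of the 70 shGFP peaks, 11 had no shDnmt3L partner (15.7%, interval 9.01 to 25.99%), against 25.5% of the whole shGFP list. The widest of these 11 was 2183 bp and their highest score 70.8, close to the lowest score of the list, 50.01. Neighbouring peaks are not independent, so these counting intervals are too narrow. Widths and scores of unshared peaks were not computed over the whole lists, and the genes were chosen by width and score rank.

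The 6 shDnmt3L peaks of 10 kb or more ranked between 44 and 778 in their list, and score rank was used to choose the genes. Among the 76 shDnmt3L peaks, 15 (19.7%) were in the highest 10% of their list by score, and 11 of these 15 overlapped no shGFP peak. In the whole shDnmt3L list 12.6% of peaks overlapped none, and the highest 10% of that list was not counted apart. Among the 70 shGFP peaks, 7 (10%) were in the highest 10% of theirs. Ranks from lists of different length show no change, so they only place each peak in its own list.

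**Figure D3:**
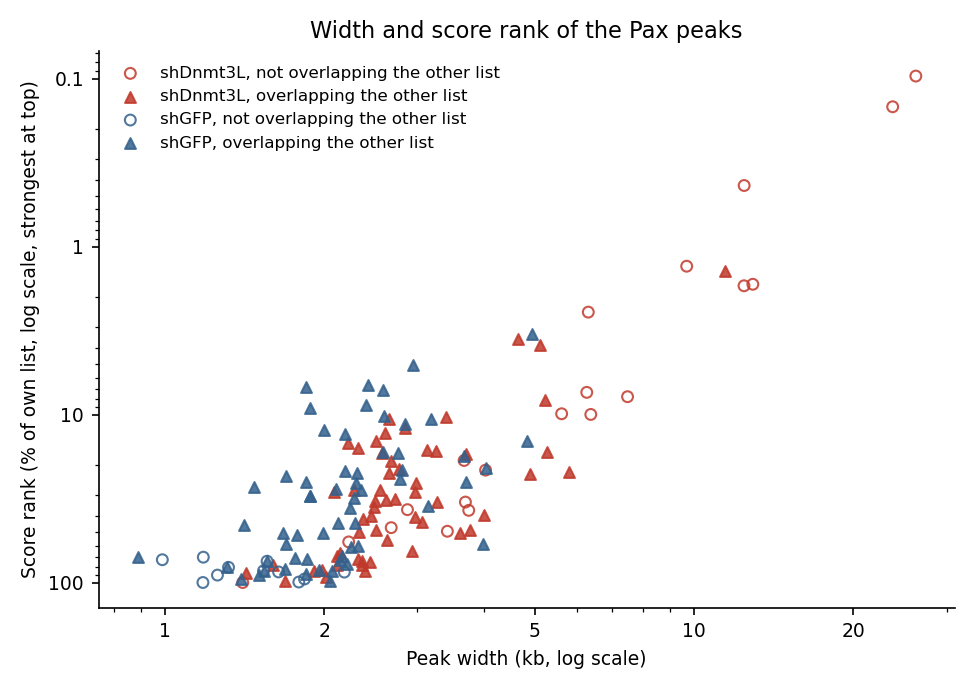
Width in kb (log scale) and score rank as a percentage of the own list (log scale, strongest at the top) of the 76 shDnmt3L peaks (red) and 70 shGFP peaks (blue) in the Pax intervals; open circles overlap no peak of the other list and filled triangles overlap one. The open red circles reach 26.2 kb and rank 0.0965%, while the open blue circles stay at or under 2183 bp.

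The surroundings of the widest shDnmt3L peak were described as a stretch, in which shDnmt3L peaks within 5 kb of each other were joined to it. The stretches were built from the shDnmt3L list alone, at a distance chosen after the values were seen, so a high shDnmt3L and a low shGFP cover within them follows in part from their construction. The 8 stretches spanned 176 kb, or 12.8% of the intervals. Within them, 154 kb were covered in shDnmt3L and 15.4 kb in shGFP. Outside them, 173 kb were covered in shDnmt3L and 137 kb in shGFP, a ratio of 1.26. No shGFP peak lay in the stretches of Pax1, Pax3, Pax7 and Pax9. At Pax8 the stretch had 7.503 kb in shDnmt3L and 6.989 kb in shGFP, and 9.66 kb of the difference lay outside it. Stretches built in the same way around the widest shGFP peak, in the 7 intervals with one, had 36.0 kb in shDnmt3L and 40.65 kb in shGFP.

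**Figure D4:**
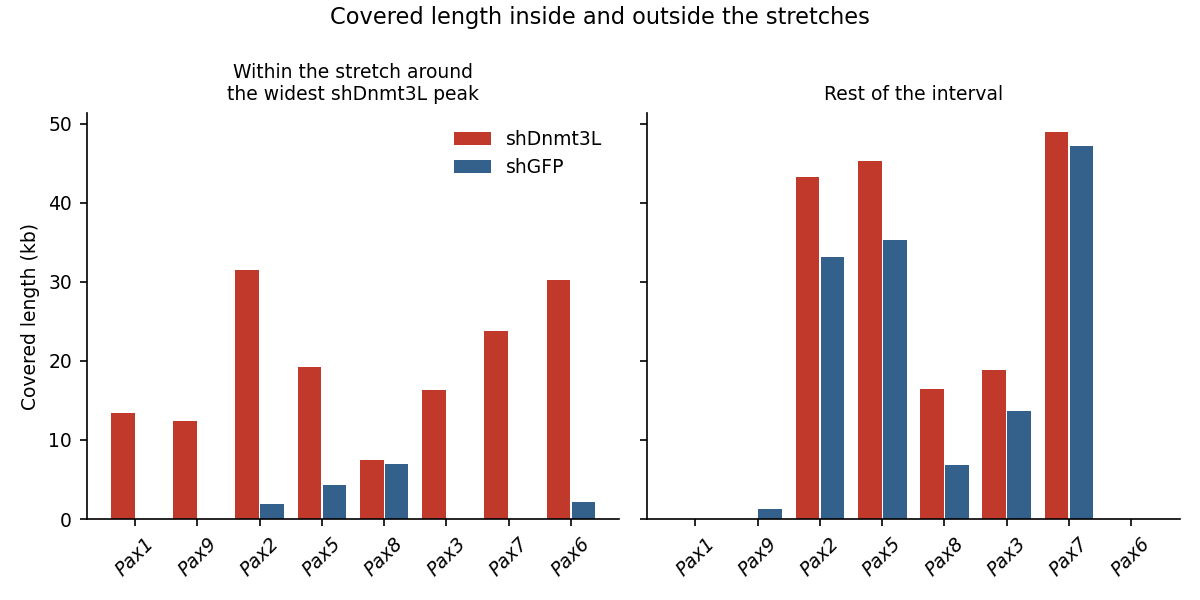
Covered length in kb of shDnmt3L (left bars, red) and shGFP (right bars, blue) within the stretch around the widest shDnmt3L peak of each interval (left panel) and in the rest of the interval (right panel). The stretches were chosen from shDnmt3L peaks; within them the sums are 154 and 15.4 kb, and in the rest they are 173 and 137 kb.

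The widest shDnmt3L peak lay toward the 5′ side of the interval in the 7 genes with a RefSeq strand, at Pax1 and Pax9 only slightly. Measured from the interval end on the 5′ side, its middle was at 19.3% of the interval at Pax5, 21.7% at Pax8, 25.1% at Pax2, 28.4% at Pax7, 39.8% at Pax6, 45.3% at Pax1 and 45.7% at Pax9. The place of the gene and its start site within the interval is not known in mm9 here, so these are positions in the interval and not distances from a promoter. They depend on how the flanks were set, and no such positions were computed for shGFP peaks or for other genes.

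Peaks with a single partner in each list were mostly a little wider in shDnmt3L at the Pax genes. The intervals held 54 such pairs, of which 49 (90.7%) were wider in shDnmt3L, against 81.7% of 37952 pairs in the whole lists. At the Pax genes the difference had a median of 248 bp with quartiles of 64 and 724 bp, and over all pairs a median of 145 bp with quartiles of 32 and 402 bp. A width at least 2-fold higher in shDnmt3L was seen in 3 Pax pairs (5.56%), 1 each at Pax2, Pax3 and Pax6, and in 2.94% of all pairs.

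Set among the genome tiles, the Pax intervals lay at the high end of the difference in covered share. The difference, shDnmt3L minus shGFP, was 22.1 percentage points at Pax2 and 21.5 at Pax6, sizes reached by 0.230% and 0.244% of tiles. It was 12.7 points at Pax7, 12.1 at Pax1 and 11.3 at Pax3, reached by 1.46%, 1.59% and 1.93% of tiles. The smallest differences were 9.25 points at Pax9, 8.90 at Pax5 and 6.36 at Pax8, reached by 3.09%, 3.28% and 6.45% of tiles. The median tile differed by 0.163 points. Interval lengths differ from the 150 kb of a tile, and the genes were chosen for this difference, so the shares only place them.

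**Figure D5:**
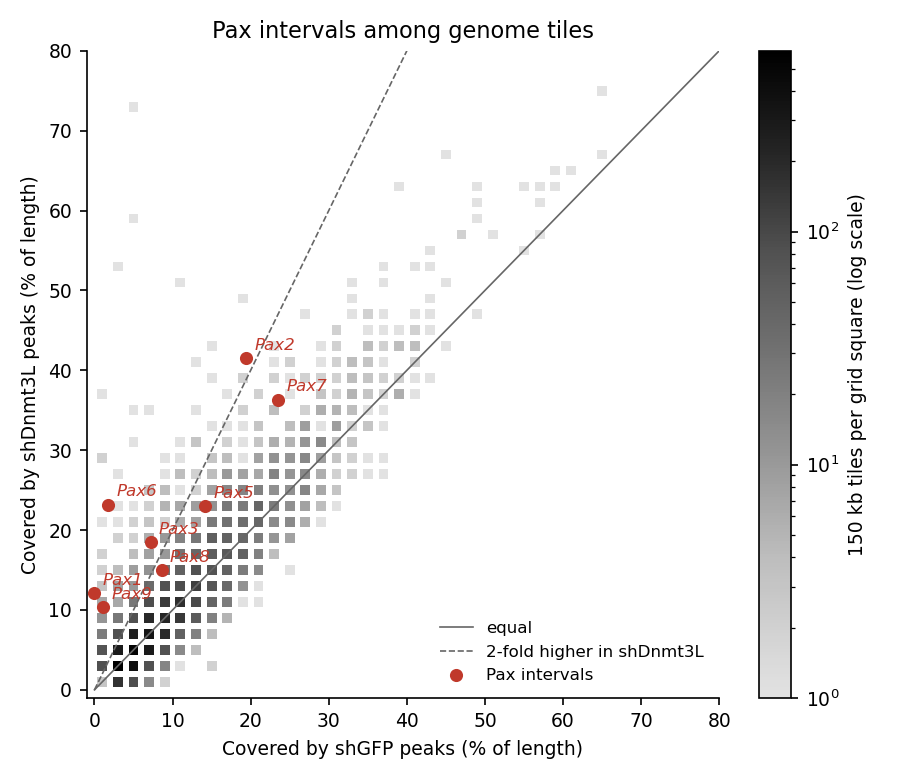
Share of length covered by shDnmt3L peaks (y axis, %) and by shGFP peaks (x axis, %) in the 8 Pax intervals (red points) and in 7376 tiles of 150 kb (grey squares, darker where more tiles fall, log scale); the solid line marks equal shares and the dashed line 2-fold more in shDnmt3L. Pax1, Pax2, Pax3, Pax6 and Pax9 lie on the upper side of the dashed line, and Pax5, Pax7 and Pax8 between the lines.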

How the data were processed

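Enrichment peaks were compared between 2 libraries, 1 per group, with groups taken from the labels. The authors deposited 1 peak list per library with positions, here counted from 1, and a score per peak. Per the submitters' processing notes, CASAVA 1.8, Bowtie 0.12.7, MACS 1.4.1 and mm9 were used. They give no roles, and the use of an input control is not given in the sources used here. The deposited score starts at 50, which −log10 of a p of 1e-05 gives when multiplied by 10, and this reading rests on the values. It ranks peaks within its own list.

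The 8 intervals and the lists were chosen with earlier results of these data known. Covered length was the number of bases under peaks in an interval. Peaks were shared when they overlapped by at least 1 bp. All 8 genes are named, with the widest and the strongest peak of each library. Shares carry Wilson 95% intervals, which cover counting error only. Depth is unknown. Tiles were 150 kb long with at least 5 kb under either list. The code was tested on simulated data. Python 3.11.15, numpy 2.4.6, pandas 2.3.3, scipy 1.17.1 and matplotlib 3.10.9 were used. Promoter sequences and strands are from RefSeq, GRCm38.p6. No coordinates were converted, and genes that act with Pax proteins were not placed, since no mm9 annotation was used. With 1 library per group no test was made. Alternatives changed the minimum score, list length, merging, interval extent, overlap rule, fold and tiles.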

Additional observations from a re-analysis of the deposited data

How the results depend on the processing

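The log2 ratio of covered length over the 8 intervals, 1.10, lay between 0.58 and 1.61 under the alternatives, 0.91 with intervals widened by 50 kb and 0.58 without peaks of 10 kb or more. Leaving out 1 gene at a time gave 0.98 to 1.27. The 5 genes with at least 2-fold more covered length in shDnmt3L became 2 without peaks of 10 kb or more (5.60% of tiles), 8 at 1.5-fold and 3 at 3-fold. They became 4 with intervals widened by 50 kb, where Pax2 had a ratio of 1.999, and 6 at a minimum score of 100 or with lists of equal length, where Pax7 had 2.26 and 2.27. A minimum score of 100 left 42.9% of shDnmt3L peaks in the Pax intervals without a shGFP peak (15.9% in the whole list), and 14.9% of tiles passed 2-fold. With lists of equal length 11.3% of tiles did. Of 48 alternative differences in kb for single genes, 40 stayed within 1.5 times, 7 moved further and 1 reversed. Some of the 40 could not change, as the setting altered no peak of the interval. An example is leaving out peaks of 10 kb or more at Pax1, Pax5 and Pax8, which had none. Ratios moved by over 1.5 times in 6 of the 39 cases with a ratio, which were Pax2 (3.44) and Pax3 (5.63) at a minimum score of 100, Pax9 widened (4.47), and Pax2 (1.39), Pax3 (1.63) and Pax6 (2.83) without peaks of 10 kb or more. Pax9 differed by −1.32 kb without its only shDnmt3L peak. Without peaks of 10 kb or more the excess was 13.5 kb at Pax2, 8.64 at Pax3, 4.06 at Pax6 and 1.77 at Pax7. With lists of equal length it was 40.6 kb at Pax7. Outside the stretches the ratio was 1.33 with peaks joined within 2 kb and 1.14 within 10 kb. Leaving out wide peaks removes length by construction. Making the lists equal in length drops only the lowest-scoring shGFP peaks, so the ratio could only stay or rise. The shDnmt3L length stayed at 327 kb, and the shGFP length fell from 153 to 127 kb. The cause of the other shifts was not tested. The join distances, the stretches around shGFP peaks, the setting without wide peaks and that without single genes were added after the data were seen. No paired analysis was possible because there is a single library a group. The depth that limits the calling of weak peaks is not known.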
